A study of Mus musculus with 6 samples.

Results

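The Notch pathway genes described here are 10 rows of the deposited table: the ligands Dll1, Dll3, Dll4 and Jag1, the receptors Notch1, Notch2 and Notch3, and the target genes Hes1, Hes5 and Hey1. They were chosen by name, and all 10 were found among the 19613 genes of the table. The cells were embryoid bodies, aggregates grown from the HBG3 line of mouse embryonic stem cells, in which the promoter of Hb9 (Mnx1), a gene of motor neurons, drives green fluorescent protein, and spinal motor neurons had been induced in them with retinoic acid and a Hedgehog agonist. On day 6 of differentiation the cultures were exposed for 24 h to a 5% share of blood fluid, a dose and time that the methods give for the study's main mouse model, from male carriers of the Huntington's disease model B6CBA-Tg(HDexon1)62Gpb/3J, which carries a fragment of the human huntingtin gene, at an age of 10 weeks and before symptoms. The fluid is called plasma in the sample labels and serum in the series title. The 6 arrays form 1 group, with the replicate numbers 2, 4, 5, 6, 7 and 8, and the study describes 6 serum samples of this model. Which arrays shared a batch of differentiated cells is not given in the sources used here, so the p-values measure the spread between these arrays, which may be in part technical. With no control arrays analysed here, levels and their spread are described and no response to serum.

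In Notch signalling, a ligand on one cell binds a receptor on its neighbour, the receptor is cut, and its inner part enters the nucleus and joins the DNA-binding protein Rbpj to switch on Hes and Hey genes. Hes and Hey proteins are repressors that hold down proneural genes and so keep a cell a progenitor. In the developing spinal cord, cells about to become neurons express the Delta-like ligands, and their neighbours with active Notch stay undifferentiated. An embryoid body is a mixture of such cells, and in whole-culture RNA fewer cells of a type and less RNA per cell cannot be told apart.

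Most markers of the cells that the label implies were called above background, by the limit given below. The same call was given to 62.6% of all genes and to 6 of 6 genes of the V2 interneuron list. The pan-neuronal list (Tubb3, Dcx and others) was called above in 9 of 9 genes, with means from 11.65 to 12.95 (log2 intensity). The motor neuron genes Olig2, Mnx1, Isl1 and Lhx3 were called above in 4 of 4 and the proliferation list in 7 of 7. The neural progenitor list was in 7 of 8, and Pax6 was called below. Mnx1 exceeded only 54.3% of all genes. It was not called above the 99th percentile of the olfactory receptor genes (limma adjusted p = 0.305). Replicate 8 stood apart somewhat in the whole table, with an average Pearson's r of 0.992 with the other arrays against 0.994 to 0.995 in those, and r without it is given with the relations described singly below.

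Background was read from the 1032 olfactory receptor (Olfr) genes, which few tissues outside the nose use. Each gene was set against the 95th percentile of the Olfr rows of the same array with limma over all genes. By this call, with a Benjamini-Hochberg adjusted p under 0.05, all 10 Notch genes were above background, each on 6 of 6 arrays, whereas 62.6% of all genes were called above and 32.9% below. Intensities depend on the affinity of the probes of each gene, so their order is one of brightness and not of transcript amounts. In that order Hey1 was highest, followed by Notch1, Notch2, Notch3, Hes5, Jag1, Dll1, Dll3, Hes1 and Dll4. Hes5 and Jag1 had means that differed by less than their spread, and their ranges overlapped. All other neighbours in this order had ranges over the 6 arrays that did not overlap.

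**Figure D1:**
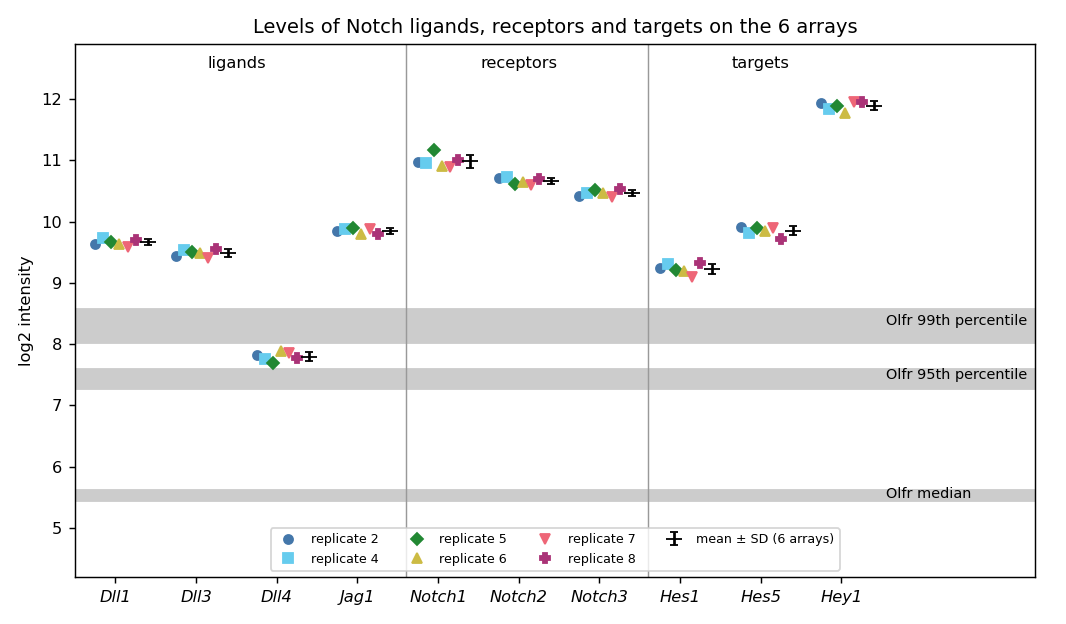
Log2 intensity (vertical axis) of the 10 genes, with 1 point per array and the mean ± SD over 6 arrays in black; grey bands span the 6 arrays' median, 95th and 99th percentile of the Olfr genes. Dll4 alone of the 10 lies between the bands of the 95th and 99th percentiles.

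Among the ligands, Dll1 and Dll3 had similar profiles, with an r that did not pass adjustment, and Dll4 was near background. Dll1 activates Notch on neighbouring cells and is the Delta-like ligand of most spinal progenitor domains. Its log2 intensity was 9.64, 9.73, 9.67, 9.63, 9.59 and 9.70 in replicates 2, 4, 5, 6, 7 and 8, a mean of 9.66 ± 0.050 (SD, n = 6). Replicate 4 was highest and replicate 7 lowest, a span of only 1.10-fold. Dll1 lay 2.17 ± 0.062 (SE) above the Olfr percentile on the log2 scale (limma adjusted p = 1.23e-11).

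Dll3 is a divergent ligand that acts mainly inside the cell that makes it, where it restrains Notch. It had 9.44, 9.54, 9.50, 9.48, 9.40 and 9.56 in the same order of replicates, a mean of 9.49 ± 0.061 (log2 intensity, SD, n = 6). Replicates 8 and 4 were highest and replicates 7 and 2 lowest. The gene exceeded the Olfr percentile by 2.0 ± 0.064 (log2, SE, limma adjusted p = 3.37e-11).

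Jag1, a ligand of the Serrate type with restricted domains in the spinal cord, was the steadiest of the 10 genes. It had 9.85, 9.88, 9.89, 9.80, 9.88 and 9.79, a mean of 9.85 ± 0.043 (log2 intensity, SD, n = 6), which was 2.36 ± 0.053 (log2, SE) above the Olfr percentile (limma adjusted p = 1.62e-12). Replicates 6 and 8 were a little below the other 4.

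Dll4 is known above all from sprouting vessels and is also used by V2 interneuron precursors. It had 7.83, 7.76, 7.69, 7.88, 7.85 and 7.77, a mean of 7.80 ± 0.070 (log2 intensity, SD, n = 6). This was 0.31 ± 0.056 (log2, SE) above the 95th percentile of the Olfr rows (limma adjusted p = 0.000246), and 26 of the 1032 Olfr genes had a mean as high or higher. Against the 99th percentile Dll4 was below on all 6 arrays, by -0.57 ± 0.094 (log2, SE, limma adjusted p = 6.58e-07), and the other 9 genes were above. By that stricter limit 43.7% of all genes were called above and 48.5% below.

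Markers of the vessel cells in which Dll4 is best known were low as well. In the endothelial list 2 of 8 genes were called above background, Cdh5 at 7.72 ± 0.10 and Tie1 at 8.50 ± 0.15 (log2 intensity, SD, n = 6), while Pecam1, Kdr, Tek, Emcn, Esam and Cldn5 were called below. The mean of Cdh5 and Tie1 ranged from 8.02 in replicate 8 to 8.22 in replicate 2. In the mural cell list 2 of 7 genes were above, Acta2 and Cspg4, and their mean ranged from 7.63 to 8.09. The part of such cells in the level of Dll4 was not tested.

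The receptors were bright on every array. Notch1, the receptor of most neural progenitors, had 10.98, 10.96, 11.17, 10.91, 10.89 and 11.00, a mean of 10.98 ± 0.10 (log2 intensity, SD, n = 6) that exceeded 94.6% of all genes. It varied most of the 10 genes, by 1.22-fold between replicates 5 and 7, and replicate 5 stood above the other arrays, which lay within a narrow range. Notch1 was 3.50 ± 0.062 (log2, SE) above the Olfr percentile (limma adjusted p = 2.98e-13).

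Notch2, a broadly expressed receptor, had 10.71, 10.73, 10.61, 10.65, 10.60 and 10.69, a mean of 10.67 ± 0.054 (log2 intensity, SD, n = 6). Notch3, which marks radial glia and is also the receptor of mural cells, had 10.42, 10.47, 10.51, 10.46, 10.40 and 10.53, a mean of 10.46 ± 0.051 (log2 intensity, SD, n = 6). Replicate 7 was lowest for both receptors, and their highest arrays differed, replicate 4 for Notch2 and replicate 8 for Notch3. Of the mural cell list, Pdgfrb and Rgs5, with means of 7.07 each on the log2 scale, and 3 others were called below background, and Acta2 at 8.02 and Cspg4 at 7.61 above it. Their part in the level of Notch3 was not tested.

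The targets differed from one another in level and in pattern. Hes1, a repressor whose level oscillates in progenitors and which responds to signals besides Notch, had 9.24, 9.31, 9.21, 9.20, 9.10 and 9.33, a mean of 9.23 ± 0.083 (log2 intensity, SD, n = 6). Replicates 8 and 4 were highest and replicate 7 lowest, 1.17-fold apart. It lay 1.74 ± 0.071 (log2, SE) above the Olfr percentile (limma adjusted p = 2.67e-10).

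Hes5, widely used as the most direct readout of Notch activity in neural progenitors, had 9.92, 9.82, 9.90, 9.84, 9.89 and 9.72, a mean of 9.85 ± 0.073 (log2 intensity, SD, n = 6). Replicate 8, the highest array for Hes1, was the lowest for Hes5. It was 2.36 ± 0.047 (log2, SE) above the Olfr percentile (limma adjusted p = 7.52e-13).

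Hey1, a related repressor, was the brightest of the 10 genes, at 11.94, 11.84, 11.89, 11.78, 11.96 and 11.96, a mean of 11.89 ± 0.075 (log2 intensity, SD, n = 6) that exceeded 98.4% of all genes. It was lowest in replicate 6 and highest in replicates 7 and 8. Hey1 was 4.41 ± 0.063 (log2, SE) above the 95th percentile of the Olfr rows (limma adjusted p = 8.12e-14).

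To show the DNA on which these roles rest, the 250 bases before the transcription start were read from RefSeq (GRCm38.p6), which matched 8 of the 10 genes with 9 starts and did not match Hes1 and Hey1. The promoter of Hes5 is shown because it holds the sequence of Rbpj, TGGGAA, in each orientation, and these bases are in capitals. It spans chr4:154960673-154960922 on the plus strand, and the first bases of the matches lie 226 and 82 bases before the start.
Hes5: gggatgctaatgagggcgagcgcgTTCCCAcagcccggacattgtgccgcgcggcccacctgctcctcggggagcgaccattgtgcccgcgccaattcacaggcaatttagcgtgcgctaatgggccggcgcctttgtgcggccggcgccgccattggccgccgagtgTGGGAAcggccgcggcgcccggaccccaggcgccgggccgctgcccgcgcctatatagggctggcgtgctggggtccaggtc
TGGGAA was searched on both strands. It was present in 21.6% of all 32851 promoter windows of this length and in both orientations in 1.28%. Of the windows of these genes, only that of Hes5 held it.

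The promoters of Dll1 and Dll3 are shown because these ligands are targets of proneural factors and had an r of 0.88 over the arrays. That r did not pass adjustment (exact permutation adjusted p = 0.237). The letters searched were CAGCTG, an E box, the kind of site that bHLH factors bind, and matches are in capitals. Dll3 spans chr7:28301786-28302035 on the minus strand, with the match beginning 7 bases before the start. The upstream start of Dll1 spans chr17:15376933-15377182 on the minus strand, with the match beginning 132 bases before the start.
Dll3: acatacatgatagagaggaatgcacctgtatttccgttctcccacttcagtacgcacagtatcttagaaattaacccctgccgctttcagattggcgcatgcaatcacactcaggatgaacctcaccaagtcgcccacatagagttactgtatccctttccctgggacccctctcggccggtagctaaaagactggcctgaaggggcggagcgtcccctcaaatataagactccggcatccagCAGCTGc
Dll1: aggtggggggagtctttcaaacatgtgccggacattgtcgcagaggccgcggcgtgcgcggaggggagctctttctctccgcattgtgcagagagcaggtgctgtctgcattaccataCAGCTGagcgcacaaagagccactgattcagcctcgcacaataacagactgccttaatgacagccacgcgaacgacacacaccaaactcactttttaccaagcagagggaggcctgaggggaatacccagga
The same letters stood once in the promoter of Jag1 and not in the window before the other start of Dll1, and they were present in 13.0% of all windows. Jag1 had an r of only 0.022 with Dll1 and of -0.35 with Dll3. The part of these letters in the covariation was not tested. The N box CACNAG, a form bound by Hes proteins, was searched on both strands too and was found before Dll4, Notch1, Notch2 and Notch3, against 36.7% of all windows. These matches describe letters and not binding.

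The replicate error of the 10 genes lay somewhat under the middle of that of genes above background. Their median percentile of SD was 38.8, with an error of 11.3 from leaving out 1 array at a time (jackknife). Genes of matched level were not compared. Their SDs ran from 0.043 for Jag1 to 0.10 for Notch1, with a median of 0.065 on the log2 scale, while the median over the 12793 genes whose mean passed the background level was 0.076. By role, the median SD was 0.056 for ligands, 0.054 for receptors and 0.075 for targets. The differences between arrays described next are therefore small, from 1.07-fold for Jag1 to 1.22-fold for Notch1 between the lowest and highest arrays.

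Replicate 7 was the lowest array for 6 of the 10 genes, namely Dll1, Dll3, Hes1 and the 3 receptors. Replicate 8 was the highest for Dll3, Notch3 and Hes1 and the lowest for Jag1 and Hes5. The rows of the map of deviations stand in an order set by hand, so blocks seen in it depend on that order.

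**Figure D2:**
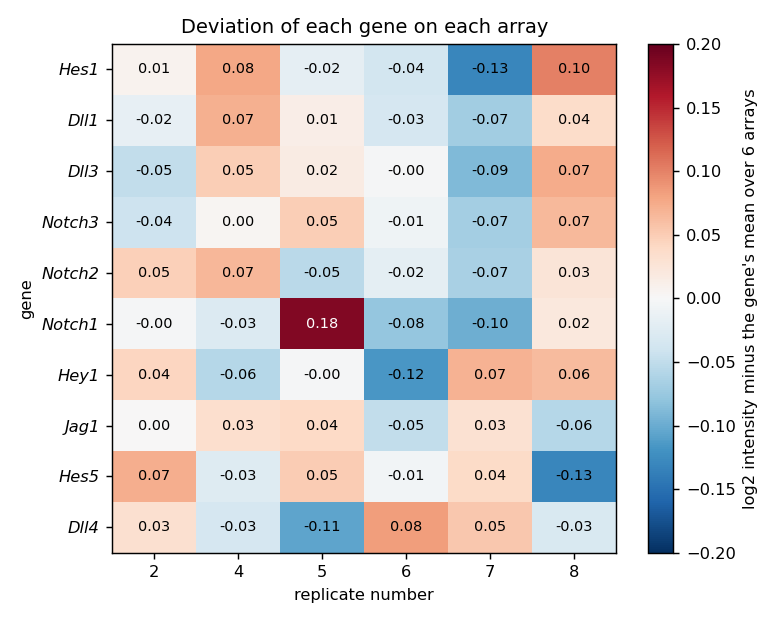
Deviation of log2 intensity from the gene's own mean (colour and printed value) for each gene (rows) on each array (columns). The order of the rows was set by hand. The upper rows are below their means in replicate 7, Notch1 is 0.18 above its mean in replicate 5, and Hes5 is 0.13 below its mean in replicate 8.

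Covariation over the arrays was examined for all 45 pairs with Pearson's r, Spearman's rho and exact permutation tests (two-sided). The median r of the pairs was -0.051, beside -0.001 over all pairs of genes above background, and it became 0.23 with each array centred on its median. After adjustment over the 45 pairs, 0 pairs passed 0.05 by r or by rho, and 5 by r and 3 by rho had an unadjusted exact p under 0.05. With 6 arrays a single pair alone can reach no adjusted p below 0.0625, so this design could pass no isolated pair.

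The largest r was that of Dll1 with Hes1, at 0.91 (exact permutation p = 0.0194, adjusted p = 0.237), with a rho of 0.89 (exact p = 0.0333, adjusted p = 0.50). With the 2 arrays most distant from the median Dll1 level left out, replicates 4 and 7, r was 0.80, and without replicate 8 it was 0.93. Dll1 and Dll3 had an r of 0.88 (exact permutation p = 0.0250, adjusted p = 0.237) and a rho of 0.89 (exact p = 0.0333, adjusted p = 0.50). It was 0.80 without the 2 farthest arrays and 0.89 without replicate 8.

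Dll3 and Notch3 had an r of 0.90 (exact permutation p = 0.0222, adjusted p = 0.237) and a rho of 0.94 (exact p = 0.0167, adjusted p = 0.50), and r was 0.67 without replicates 7 and 8, the farthest arrays. Dll3 and Hes1 had an r of 0.88 (exact permutation p = 0.0264, adjusted p = 0.237) and a rho of 0.83 (exact p = 0.0583, adjusted p = 0.510). Without replicates 7 and 8 this r was 0.50, so it rested on those arrays more than that of Dll1 with Hes1. Without replicate 8 alone, r was 0.84 for Dll3 with Notch3 and 0.81 for Dll3 with Hes1.

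The opposite sign was seen for Dll4 and Notch1, with an r of -0.89 (exact permutation p = 0.0167, adjusted p = 0.237) and a rho of -0.77 (exact p = 0.103, adjusted p = 0.510). Replicate 5 had the highest Notch1 and the lowest Dll4, and r was -0.74 without replicate 5, -0.65 without the farthest arrays, replicates 5 and 6, and -0.89 without replicate 8. Hes5 had an r of -0.51, -0.76 and -0.66 with Dll1, Dll3 and Hes1. None of these had an exact permutation p under 0.05 (0.308, 0.0667 and 0.146, and adjusted p = 0.771, 0.429 and 0.469). The rho values were -0.49, -0.71 and -0.49 (exact p = 0.356, 0.136 and 0.356, and adjusted p = 0.696, 0.510 and 0.696). Without the arrays farthest for the first gene of each pair r was -0.60, -0.75 and -0.41, and without replicate 8 it was -0.46, -0.61 and -0.37. Jag1 and Hes5 had an r of 0.64 (exact permutation p = 0.172, adjusted p = 0.508) and a rho of 0.43 (exact p = 0.419, adjusted p = 0.786). This r fell to 0.21 without replicate 8 and was -0.54 without the farthest arrays, so the relation rested on them. Hey1 had an r between -0.27 and 0.14 with each of the other 9 genes, with an unadjusted exact p of 0.585 or higher.

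**Figure D3:**
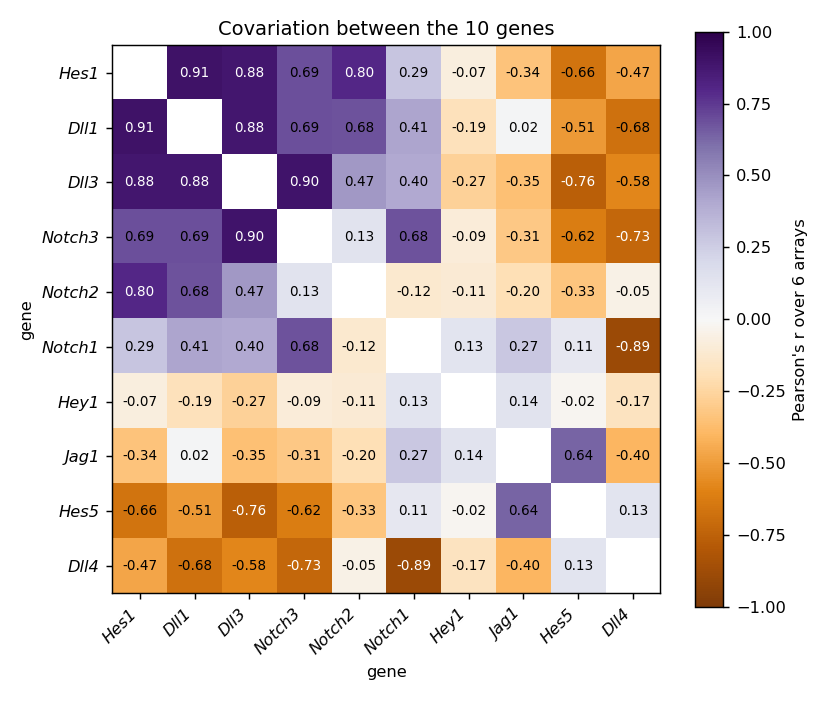
Pearson's r over 6 arrays (colour and printed value) between the 10 genes, which are on both axes in the same order, set by hand. Hes1, Dll1, Dll3 and Notch3 have r from 0.69 to 0.91 among themselves, and Hes5 has negative r with each of them.

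**Figure D4:**
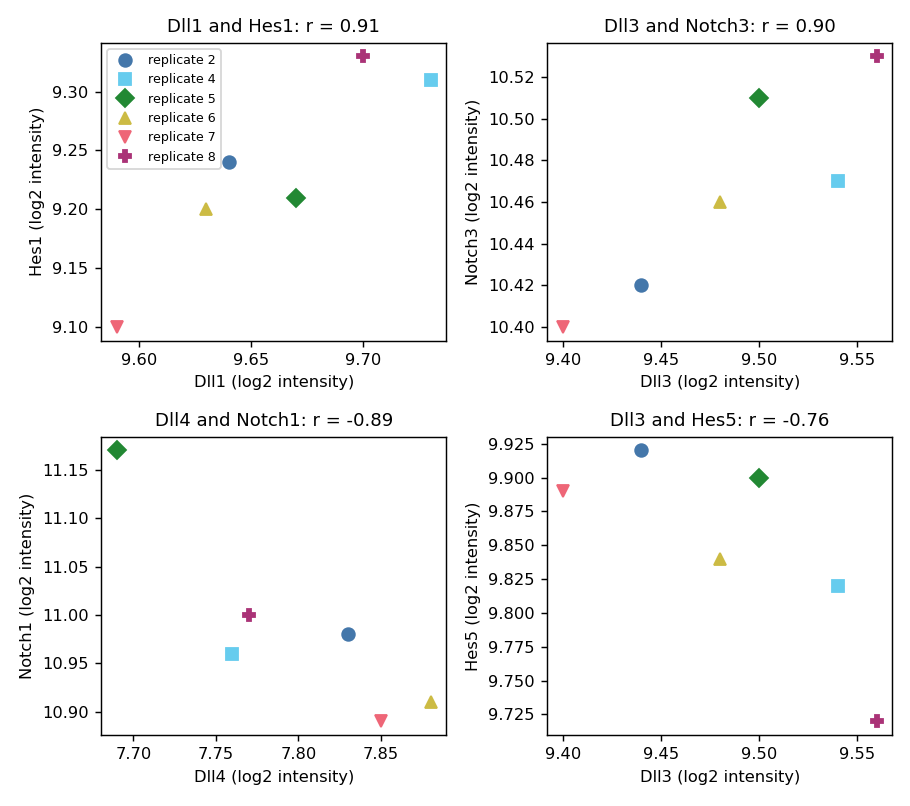
Log2 intensity of the pairs Dll1 and Hes1, Dll3 and Notch3, Dll4 and Notch1, and Dll3 and Hes5 (1 panel each, first gene on the horizontal axis), with 1 point per array. Replicate 7 is lowest for Dll1, Hes1, Dll3 and Notch3, and the widest range, that of Notch1, is 0.28 log2 units.

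These patterns were set beside measures that all genes of an array share. The first principal component of the other genes above background took 47.4% of their variance, and replicate 8 had its largest loading, 0.80. Hes1 had an r of 0.81 with that component, Notch2 of 0.63, Dll3 of 0.62, Dll1 of 0.58 and Notch3 of 0.50. Hey1 had 0.43, Notch1 0.063, Dll4 -0.26, Jag1 -0.47 and Hes5 -0.77. The median Olfr intensity, a measure of the array's background, was lowest in replicate 8 at 5.44 and ran from 5.49 to 5.61 in the other arrays. Its r with the 10 genes ran from -0.68 for Hes1 to 0.54 for Hes5. None of these 10 relations had an exact permutation p under 0.05 by r, and the lowest adjusted p was 0.571. By rho Hes1 had -0.89 (exact permutation p = 0.0333, adjusted p = 0.333). The part of the array background in the covariation was not tested.

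Each gene was then related to the mean of each of 8 marker lists, taken over the genes whose own mean passed the background level, for proneural genes, progenitors, neurons, motor neurons, V2 interneurons, endothelium, mural cells and proliferation. After adjustment, 0 of these 80 relations passed 0.05 in exact permutation tests, and 6 by r and 2 by rho had an unadjusted p under 0.05. Some of 80 such tests pass an unadjusted 0.05 without any relation. A single relation alone could reach no adjusted p below 0.111. Notch2 was lower on arrays with a higher proliferation mean, with an r of -0.95 (exact permutation p = 0.00556, adjusted p = 0.444) and a rho of -0.94 (exact p = 0.0167, adjusted p = 0.685). Without the farthest arrays this r was -0.99 and without replicate 8 it was -0.95. With arrays centred on their medians, though, it was -0.084, and the proliferation mean varied by only 0.025 (SD, n = 6). Notch2 also had an r of -0.83 with the V2 interneuron mean (exact permutation p = 0.0458). Without the farthest arrays it was -0.74, and without replicate 8 it was -0.82. Hes5 had 0.81 with the mean of Cdh5 and Tie1 (exact permutation p = 0.0472), and 0.37 and 0.66 in these settings. Notch1 had 0.83 with the motor neuron mean (exact permutation p = 0.0333), and -0.066 and 0.86. Each of these adjusted p was 0.622, and none had an exact p under 0.05 by rho.

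Dll3 was higher on arrays with a higher mean of the proneural list, which holds bHLH factors and the zinc-finger factor Insm1, with an r of 0.92 (exact permutation p = 0.0111, adjusted p = 0.444) and a rho of 0.83 (exact p = 0.0583, adjusted p = 0.685). It was 0.47 without replicates 2 and 7, the arrays farthest in the proneural mean, and 0.94 without replicate 8. With the same mean Dll1 had an r of 0.74 (exact permutation p = 0.103, adjusted p = 0.694), Hes1 of 0.74 (exact p = 0.114, adjusted p = 0.696) and Dll4 of -0.40 (exact p = 0.451, adjusted p = 0.894). The rho values of these 3 genes were 0.54, 0.60 and -0.086 (exact p = 0.297, 0.242 and 0.919, and adjusted p = 0.820, 0.820 and 1). Without replicates 2 and 7 their r was 0.14, 0.57 and 0.65, so the sign of Dll4 turned, and without replicate 8 it was 0.70, 0.70 and -0.36. The proneural mean was 9.59, 9.70, 9.68, 9.70, 9.52 and 9.71, lowest in replicate 7 as for 6 of the Notch genes. Notch3 was higher on arrays with a higher mean of the 4 motor neuron genes, with an r of 0.89 (exact permutation p = 0.0181, adjusted p = 0.481) and a rho of 0.89 (exact p = 0.0333, adjusted p = 0.685), 0.80 without the farthest arrays and 0.91 without replicate 8. The 4 genes did not all share this pattern. Mnx1 was lowest in replicate 7 and highest in replicate 8, as Notch3 was. Lhx3 was lowest in replicate 7 too, but highest in replicate 5. Isl1, however, was 10.44 in replicate 7, above its mean of 10.33 (log2 intensity). Olig2 was 8.91 in replicate 8, against 9.17 in replicate 5. The relation of Notch3 to each of these genes was not tested.

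The other genes of the pathway were taken from a list of 49, of which 47 were matched in the table, and Psenen and Rbpj were not analysed here. Of the 47, 46 were called above the 95th percentile of the Olfr rows and 0 below, against 62.6% and 32.9% of all genes. Above the 99th percentile 39 were called, against 43.7% of all genes. Hey2, a target known best from heart and vessels, was the gene not called, at 7.61 ± 0.084 (log2 intensity, SD, n = 6). The 8 genes not called above the 99th percentile were the targets Hes3, Hes7, Hey2 and Heyl, the receptor Notch4, the ligand-like Cntn1, and Kat2b and Tle2 of the nuclear complex.

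**Figure D5:**
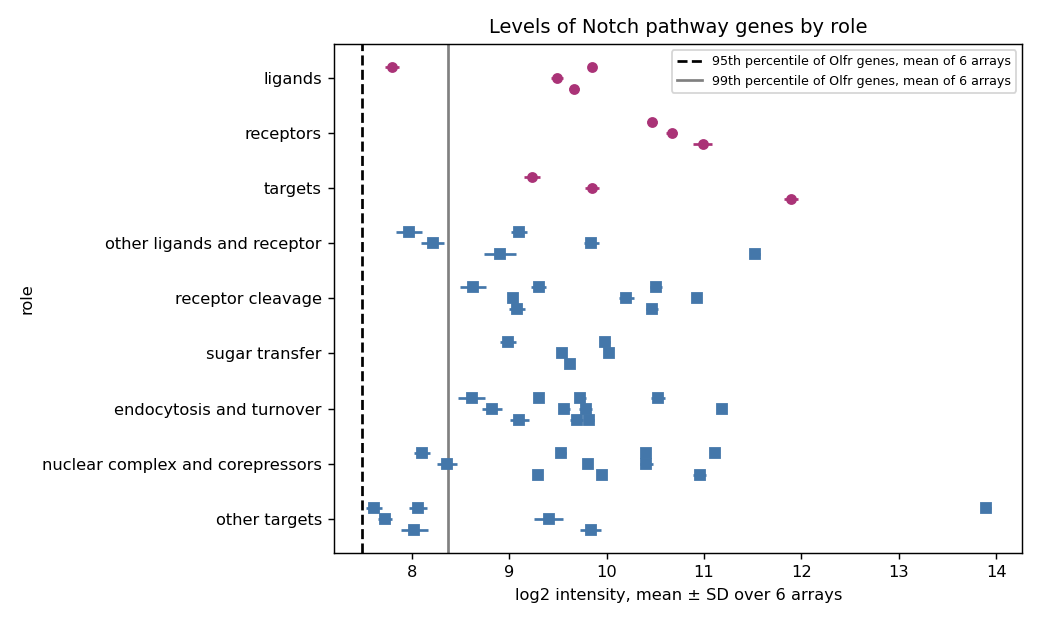
Mean log2 intensity ± SD over 6 arrays (horizontal axis) of the 10 genes (circles) and 47 other pathway genes (squares), by role; lines mark the 95th and 99th percentiles of the Olfr genes. All genes of receptor cleavage, sugar transfer and endocytosis lie above both lines.

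By role, all 8 genes of receptor cleavage were called above background, as were 62.6% of all genes. The lowest of the 8 was Psen2, a catalytic subunit of gamma-secretase, at 8.63 (mean log2 intensity). The 5 enzymes that add sugars to Notch ran from Mfng at 8.99 to Poglut1 at 10.02. The 11 genes of endocytosis and turnover ran from Neurl1a at 8.61 to Dtx4 at 11.19. Both encode ubiquitin ligases, of the Neuralized and Deltex families. The 10 coactivators and corepressors ran from the acetyltransferase Kat2b at 8.10 to the Groucho-type corepressor Tle3 at 11.11.

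Among the other ligands and receptor, the contact protein Cntn1 was lowest at 7.97 and Dlk1, an inhibitory ligand-like protein, highest at 11.52. Notch4, the endothelial receptor, had 8.21 ± 0.12 (log2 intensity, SD, n = 6) and passed the 99th percentile of the Olfr rows on 1 of 6 arrays. The other targets held both the lowest and the highest levels of the pathway, from Hey2 at 7.61 to Fabp7, the radial glial lipid-binding protein, at 13.90. Of the 7 genes listed as other targets, 6 were above the 95th percentile, against 62.6% of all genes. Above the 99th were 3, Fabp7, Hes6 and Nrarp, against 43.7% of all genes. Hes6 stands in this list by its gene family and is not taken here as a readout of Notch.

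The genes whose pattern over the 6 arrays was most like that of 1 ligand, 1 receptor and 1 target were sought among 12166 genes above background on every array. For Dll1 they were Rab33b, 5430411K18Rik and Rbbp8, with r from 0.98 to 0.99. For Notch1 they were Grk6, Kbtbd2 and Smad7, with r from 0.989 to 0.995. Smad7 shared with Notch1 the high value in replicate 5, at 9.23 against 8.82 to 8.97 elsewhere. For Hes5 they were Nle1, Kcnq5 and Gm10548, with r from 0.99 to 0.996. Nle1 was lowest in replicate 8, at 7.96, as Hes5 was. An r over 0.9 with so few arrays is common. Between 33 genes for Jag1 and 289 genes for Hes1 reached it, or 0.271% and 2.38% of those compared, and 1.70% of all pairs of genes above background did.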

How the data were processed

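Each sample was total RNA of embryoid bodies on an Affymetrix mouse exon array. The authors deposited linear intensities, with 1 value for each gene on each array, made by Robust Multi-array Averaging (RMA) in Aroma Affymetrix as the mean over the exons annotated to a gene; the submitters' processing notes also name Affymetrix Expression Console. The genome build and the arrays normalized together are not given in the sources used here. RMA equalizes the distribution of probe signals between arrays, which removes a global shift at the level of probes. In the gene values used here the median intensity still ran from 296 in replicate 8 to 311 in replicate 5. The table held 0 columns of other samples.

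Intensities were taken to log2 with no pseudocount. Levels were set against the 95th percentile of the Olfr rows of each array with limma 3.58.1 (R 4.3.3) over all 19613 genes, two-sided, with Benjamini-Hochberg adjustment, after the script was tested on simulated data. A gene counted as above background in lists and pairs when its mean over arrays passed 7.47, the 95th percentile of Olfr means. Relations used exact permutation over all 720 pairings of the 6 arrays. Array number limits the precision. Of 117 listed genes, 113 matched by symbol, 1 by synonym (Map2) and 3 not at all; Prom1, Psenen and Rbpj were not analysed here. By rule the named genes were the 10 members, the highest and lowest pathway gene of each role, those not called above background and the 3 genes most like Dll1, Notch1 and Hes5; Hes3, Hes6, Hes7, Heyl, Nrarp, Notch4, Tle2, Insm1 and the vessel markers were named after their values were seen. Some genes that the rule names are not reported here. The members and lists were chosen with earlier results of these data known.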

Additional observations from a re-analysis of the deposited data

How the results depend on the processing

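All 10 genes were called above background with quantile normalization, with the median of the Olfr rows as the limit and without any 1 array. With the 99th percentile as the limit 9 were, and Dll4 changed sign to -0.57 (log2, against 0.31). The 46 other pathway genes called above became 39 with the 99th percentile and 47 with the median, and stayed at 46 otherwise. The median SD of the 10 genes ranged from 0.055 to 0.069 when 1 array was left out. Their median percentile of SD was 38.8 among genes above background and 26.9 among all genes, whose median SD was 0.098 against 0.076 above background. The median r of the 45 pairs was -0.051 and became 0.23 with median centring, the cause of which was not tested; it ran from -0.20 to 0.087 when 1 array was left out and was 0.11 with the first component removed. The counts of pairs and marker relations passing adjustment were 0 under each alternative run, which says nothing of stability since no isolated relation could pass. Marker relations were not run with the first component removed or on linear intensities. The 5 pairs with an unadjusted exact p under 0.05 kept their sign in all 10 alternatives. In 4 to 6 of the alternatives their exact permutation p was 0.05 or higher, in some at exactly 0.05. Without 1 array only 120 permutations exist, so p can rise there though r does not fall. Dll1 and Hes1 had an r of 0.92 and an exact permutation p of 0.05 without replicate 2. With quantile normalization the exact permutation p was 0.0625 for Dll1 and Dll3, 0.0847 for Dll1 and Hes1, 0.0861 for Dll3 and Hes1 and 0.110 for Dll4 and Notch1, and 0.0472 for Dll3 and Notch3. No paired analysis was possible because the arrays form 1 group.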
